A study of Mus musculus with 9 samples.

Results

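The genes described here encode the proteins of the cytosolic ribosome. They were taken by name from the probes of 9 arrays: every probe that was no control and whose gene name was Rpl or Rps followed by a number, with or without a closing a, l or x, or was Rplp0, Rplp1, Rplp2 or Rpsa. This gave 186 probes for 81 genes, 49 of the large and 32 of the small subunit, and the brightest probe stood for each gene. Of the 81 genes, 80 passed the filter on dim probes, among 16438 genes tested in all. The gene left out was Rpl3l, a paralog known from striated muscle, whose probe was well above background on 0 of 9 arrays.

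The samples were abdominal aortas of B cell-deficient mice with the uMT genotype on the C57BL/6 strain, and each of the 3 groups held 3 arrays. All groups, the controls too, thus carried the uMT allele, which stops B cells from maturing. uMT_sham mice had saline applied around the aorta, uMT_Ca mice had 0.5 M CaCl2 applied there to induce an aneurysm, and uMT_Ca+IgG mice had the same CaCl2 and intraperitoneal mouse polyclonal IgG. Tissue of both CaCl2 groups was taken on day 7, and the sources used here give no day for sham tissue. Whether the replicates of a group were different mice is not stated, and a p-value then measures how far these arrays spread, technical spread included. Probes named for Ighm, the gene altered in uMT mice, were not among those used, so the genotype was not checked here. RNA came from whole tissue, so fewer cells of a type and less RNA per cell cannot be told apart.

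A ribosome is built from a small subunit, which reads the mRNA, and a large subunit, which joins amino acids and passes the new chain out through a tunnel. Its proteins are made in matched amounts from mRNAs that are among the most abundant of a cell. Many of these mRNAs start with a C followed by a run of pyrimidines, the terminal oligopyrimidine (TOP) tract, through which mTORC1 and the RNA-binding protein Larp1 control their translation. Such control acts on the use of the mRNA, which an array of total RNA does not measure. Several of these genes are used as reference genes for other measurements.

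The starts of transcription below show the tract for 4 members. They also show the same stretch of the 2 members that differed between uMT_Ca and uMT_sham, which had no tract at the start base. Each line runs 5′ to 3′ from 30 bases before the annotated start to 20 bases from it onward, in RefSeq's annotation of GRCm38.p6. Capitals mark an unbroken run of C and T that begins with C at the start base and holds at least 5 bases.
Rps6, chr4:86857348-86857397, minus strand: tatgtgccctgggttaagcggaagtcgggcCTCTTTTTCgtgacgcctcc
Rps27, chr3:90213629-90213678, minus strand: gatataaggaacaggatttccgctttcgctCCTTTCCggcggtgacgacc
Rpl38, chr11:114668550-114668599, plus strand: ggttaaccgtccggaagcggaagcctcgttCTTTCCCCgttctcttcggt
Rplp2, chr7:141447621-141447670, plus strand: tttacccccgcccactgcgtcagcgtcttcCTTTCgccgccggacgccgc
Rps15, chr10:80292401-80292450, plus strand: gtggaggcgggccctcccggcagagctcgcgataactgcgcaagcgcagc
Rpl31, chr1:39367821-39367870, plus strand: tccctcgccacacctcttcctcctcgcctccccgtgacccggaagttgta

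Of the 81 genes, 61 had an entry, with 73 annotated starts. The tract, a C at the start base followed by at least 4 bases that are each C or T on the transcribed strand, stood at 13 of the 73 starts (17.8%), at 823 of 32851 starts of all genes (2.51%) and at 0 of 75 starts of mitochondrial ribosomal proteins. Within 10 bases of the start such a run began at 40 of the 73 starts (54.8%) and at 30.7% of all starts. Rps15 and Rpl31 had no tract at the annotated base. Annotated starts can lie some bases from the start used in this tissue, and a missing match says only that these letters are not at that base. The 13 genes with the tract at their start had a median log2 change from uMT_sham to uMT_Ca of -0.10, with 0 called, and the 47 tested genes that had an entry without it a median of -0.12, with 2 called.

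The first question was whether ribosomal protein mRNAs changed when CaCl2 was applied. Few of them were called, and the size of their changes depended on the scaling of the arrays. At an adjusted p under 0.05 (limma, Benjamini-Hochberg over all 16438 genes), 2 of 80 members were called, Rps15 and Rpl31, both lower in uMT_Ca. That is 2.5% of the members, where 36.5% of all genes were called, 17.4% higher and 19.1% lower. The log2 change was smaller than 0.25 in either direction for 63 of 80 members and for 31.1% of all genes with the 75th percentile of each array subtracted, and for 19 of 80 members and 21.9% of all genes with the median subtracted. The quartiles of the members were -0.22 and -0.0082, and those of all genes -0.53 and 0.39. The 95% interval of the change lay inside a 2-fold change either way for 77 of 80 members and for 51.4% of all genes. The 3 members whose interval reached past it were Rps15, Rpl10l and Rpl39l. With median scaling the interval lay inside for 57 of 80 members and for 30.5% of all genes. Leaving out 1 array changed the number of members called with 75th percentile scaling. It was 0 without replicate 2 or 3 of uMT_sham or of uMT_Ca, where 23.8% to 30.2% of all genes were called. It was 1 without replicate 1 of any group or replicate 2 of uMT_Ca+IgG, where 24% to 35.8% of all genes were. Without replicate 3 of uMT_Ca+IgG it was 4, where 44.6% of all genes were called. Within slide 1 it was 0, where 23.8% of all genes were called, and with slide row as a block 0, where 20.6% were. Within slide row 1, which held 1 sham array, the members' median change was -0.06 and that of all genes -0.0955. The median standard error was 0.13 for the members and 0.21 for all genes, and 0.25 and 0.31 with median scaling.

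**Figure D1:**
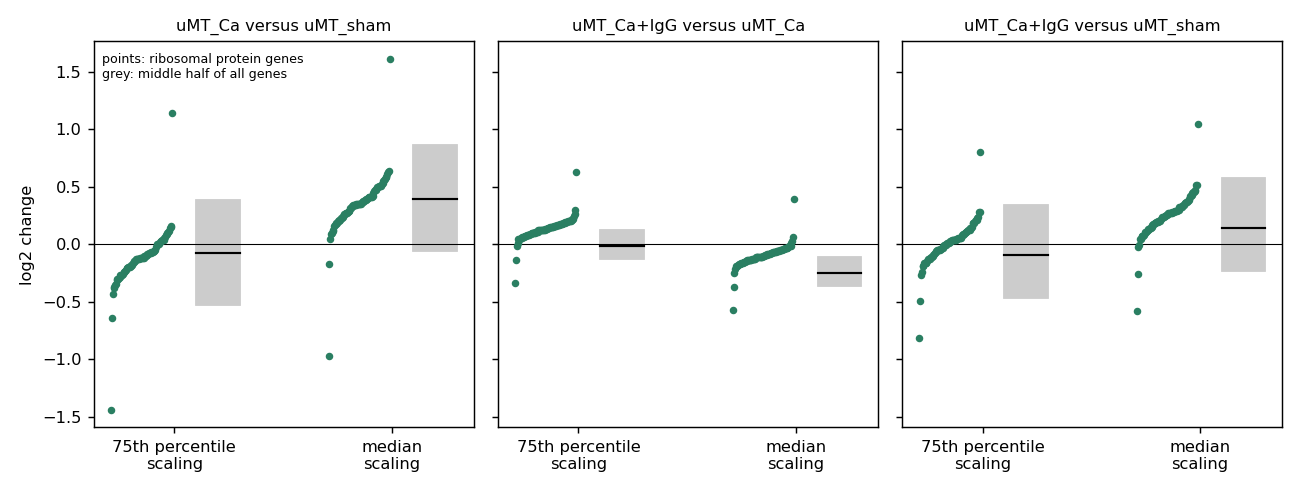
Log2 change of the 80 tested ribosomal protein genes (points, sorted) in 3 comparisons under 2 scalings of the arrays; the grey box spans the quartiles of all 16438 genes and its line is their median. The points form a narrow band in each comparison, and the band lies below 0 for 61 of 80 genes with 75th percentile scaling in uMT_Ca versus uMT_sham but above 0 for 78 of 80 with median scaling.

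The direction of the set depended on how the arrays were scaled. With the 75th percentile of each array subtracted, the median change of the 80 members was -0.12 and that of all genes -0.080. With the median of each array subtracted instead, the members' median was 0.35 and that of all genes 0.39. Relative to the median of all genes the members' median was -0.0405 under both, and it turned to 0.047 with quantile normalization, 0.089 with normexp background correction and 0.064 with the authors' series table, so no direction of the set is given. Arrays of uMT_Ca and uMT_sham did not overlap for 26 members that were lower and 1 that was higher with 75th percentile scaling, 33.8% of the members against 56.6% of all genes (24.7% higher, 31.9% lower). With median scaling they did not overlap for 48 that were higher and 1 that was lower, against 48.3% and 13.2% of all genes (61.5% in all), and 0 of 80 were called, where 28.7% of all genes were (22.2% higher, 6.55% lower), with an unadjusted p under 0.05 for 6 members.

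Array by array, the median level of the 80 members in log2 units above the 75th percentile was 7.39, 7.51 and 7.31 in uMT_sham, 7.33, 7.13 and 7.20 in uMT_Ca, and 7.20, 7.26 and 7.50 in uMT_Ca+IgG. The highest uMT_Ca array thus overlapped the lowest sham array. Above the array's own median of the tested genes, which does not depend on the percentile subtracted, the members' median lay 7.11, 7.20 and 7.06 higher in uMT_sham, 6.95, 6.77 and 6.84 in uMT_Ca, and 6.84, 6.89 and 7.25 in uMT_Ca+IgG. By that measure the uMT_Ca arrays lay below all sham arrays, with means of 6.86 ± 0.088 and 7.12 ± 0.070 (SD, n = 3). The members' share of the summed brightest-probe signal of all tested genes gave no such order. It was 9.36%, 9.42% and 8.65% in uMT_sham, 9.45%, 9.27% and 9.15% in uMT_Ca, and 9.19%, 9.67% and 10.52% in uMT_Ca+IgG.

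**Figure D2:**
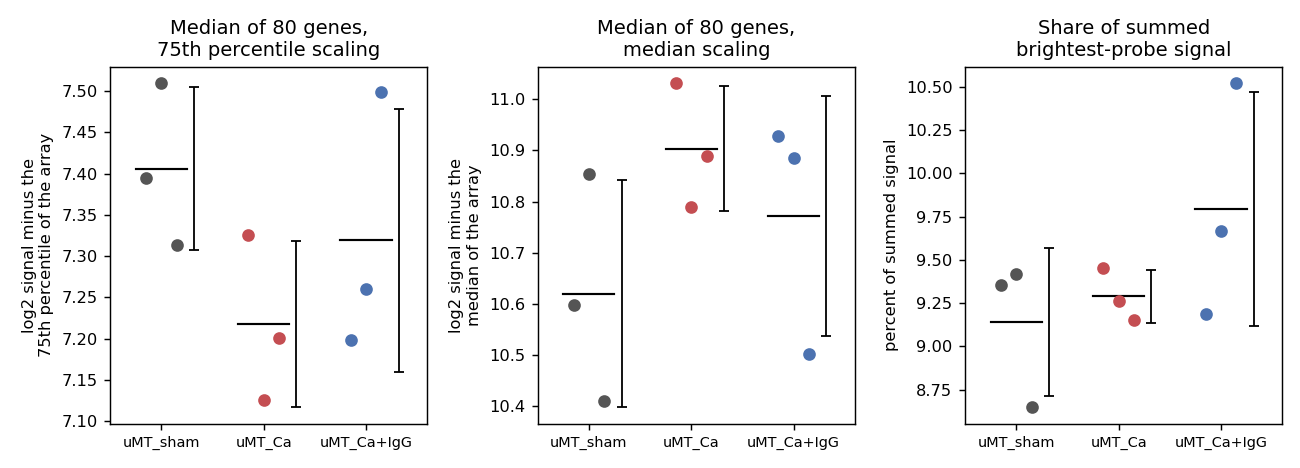
Median of the 80 ribosomal protein genes on each array under both scalings (log2 units) and their share of the summed signal of all tested genes (percent), with 1 point per array, a line at the group mean and a bar of 1 SD. The uMT_Ca mean lies below the sham mean with 75th percentile scaling (7.22 against 7.41) and above it with median scaling (10.90 against 10.62), and replicate 3 of uMT_Ca+IgG has the largest share, 10.52%.

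Some arrays stood apart. Replicate 3 of uMT_Ca+IgG had a second principal component score of -74.5, and scores of the remaining 8 arrays ran from 0.61 to 15.9. It was the highest array of its group for 73 of 80 members, by a median of 0.22 above the mean of the other 2, and with median scaling it lay 0.45 below them. Replicate 3 of uMT_sham was the only array on its slide, and all uMT_Ca arrays came from slide row 1. The 75th percentile of the signal was 267 to 302 on the sham arrays, 381 to 496 on those of uMT_Ca, and 449, 455 and 270 on those of uMT_Ca+IgG. The share of probes well above background ran from 54.9% to 59.9%, and 0 of the brightest member probes were saturated.

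Among small subunit proteins the largest difference was in Rps15, which sits near the decoding site and is needed for export of the small subunit from the nucleus. Its log2 level was 7.36, 7.54 and 7.57 in uMT_sham, 6.95, 6.80 and 6.78 in uMT_Ca, and 6.79, 6.84 and 7.35 in uMT_Ca+IgG. All uMT_Ca arrays lay below all sham arrays, and in the group with IgG replicate 3 lay near the sham arrays. Rps15 fell by 0.65 on the log2 scale from uMT_sham to uMT_Ca (SE 0.17, 95% interval -1.04 to -0.26, adjusted p = 0.0202 by limma), which is 1.57-fold lower. Its second probe gave -0.52. The call of Rps15 was lost without replicate 2 or 3 of uMT_sham or of uMT_Ca, and with slide or slide row as a block. From uMT_sham to uMT_Ca+IgG the difference was -0.50 (SE 0.17, adjusted p = 0.0595 by limma), and without IgG replicate 3 it was -0.67, with an adjusted p of 0.00621. With median scaling the difference from uMT_sham to uMT_Ca was -0.17 (adjusted p = 0.576), and with arrays centred on the members' own median it was -0.46 (adjusted p = 0.0591).

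Rps6, the substrate of S6 kinase, read 7.23, 7.36 and 7.10 in uMT_sham, 7.09, 6.95 and 6.85 in uMT_Ca, and 6.98, 7.10 and 7.21 in uMT_Ca+IgG. The uMT_Ca arrays lay just below the sham arrays, a difference of -0.26 (SE 0.13) that was not called. Rpsa, which is also known as the laminin receptor, had the highest value of the small subunit at 0.15 (SE 0.15), again not called. It read 7.92, 7.60 and 7.95 in uMT_sham and 7.93, 7.91 and 8.10 in uMT_Ca, so the groups overlapped. With median scaling its difference was 0.63 (adjusted p = 0.0665 by limma), and with a variance trend added, a setting chosen after seeing the data, it was called higher (adjusted p = 0.0224). Rps19, the member most often mutated in Diamond-Blackfan anaemia, gave 0.094 (SE 0.14) and Rps27 gave -0.27 (SE 0.15). Rps2, at the mRNA entry site, gave -0.14 (SE 0.12), and 0 of 3 proteins of that site were called. In the list of 18 Diamond-Blackfan genes, drawn from both subunits, 1 fell, 0 rose and the median was -0.12. Over the 32 genes of the small subunit the median was -0.12, with 1 called lower, 0 higher and 31 not called.

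Over the 48 tested genes of the large subunit the median was also -0.12, with 1 called lower, 0 higher and 47 not called. The member called was Rpl31, which lies near the exit of the polypeptide tunnel. Its log2 level was 7.43, 7.59 and 7.38 in uMT_sham, 7.15, 7.02 and 6.94 in uMT_Ca, and 7.06, 7.14 and 7.46 in uMT_Ca+IgG. The sham arrays lay above the uMT_Ca arrays, and the group with IgG spanned both. Rpl31 fell by 0.43 from uMT_sham to uMT_Ca (SE 0.15, 95% interval -0.76 to -0.095, adjusted p = 0.0490 by limma), which is 1.35-fold lower. The call stood just inside the threshold and was lost when any 1 of 8 arrays was left out, all but IgG replicate 3. With median scaling the difference was 0.042. Of the 9 proteins of the tunnel and its exit, Rpl31 was the 1 called and the median was -0.13.

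Rpl24, which forms a bridge to the small subunit, read 7.61, 7.76 and 7.67 in uMT_sham, 7.46, 7.34 and 7.36 in uMT_Ca, and 7.52, 7.57 and 7.63 in uMT_Ca+IgG. The uMT_Ca arrays lay below all others, and the highest array with IgG overlapped the lowest sham array. The difference of -0.30 (SE 0.11) between uMT_Ca and uMT_sham missed the threshold (adjusted p = 0.0651 by limma). Rpl36a was the 1 member whose uMT_Ca arrays all lay above the sham arrays. It read 5.59, 5.64 and 5.56 in uMT_sham, 5.83, 5.66 and 5.65 in uMT_Ca, and 5.84, 5.87 and 5.93 in uMT_Ca+IgG, a difference of 0.11 (SE 0.11) between uMT_Ca and uMT_sham that was not called. Rpl36a lies close in sequence to Rpl36al, and another of its 3 probes gave -0.29. The proteins of the 5S ribonucleoprotein, Rpl5 and Rpl11, which also bind Mdm2 when ribosome assembly is disturbed, gave 0.050 (SE 0.14) and 0.060 (SE 0.12), with 0 of 2 called. Rpl3 of the peptidyl transferase centre gave -0.12 (SE 0.13), Rpl22 gave 0.030 (SE 0.13) and Rpl38 gave -0.064 (SE 0.14).

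The stalk of the large subunit, to which elongation factors bind, consists of Rplp0 with Rplp1 and Rplp2. Rplp0 read 8.12, 8.17 and 8.01 in uMT_sham, 8.35, 8.10 and 8.33 in uMT_Ca, and 8.31, 8.33 and 8.33 in uMT_Ca+IgG. The second uMT_Ca array lay within the sham range and the others above it, and all arrays with IgG lay above all sham arrays. The differences from sham were 0.16 for uMT_Ca and 0.23 for uMT_Ca+IgG (SE 0.12 for both), and neither was called. With median scaling the first was 0.63 (adjusted p = 0.0951 by limma), and with a variance trend added it was called higher (adjusted p = 0.0387). It was also called higher in the authors' series table, at 0.41 (adjusted p = 0.0337). Rplp1 gave 0.0059 (SE 0.13) and Rplp2 gave -0.065 (SE 0.12), and 0 of the 3 stalk genes were called.

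**Figure D3:**
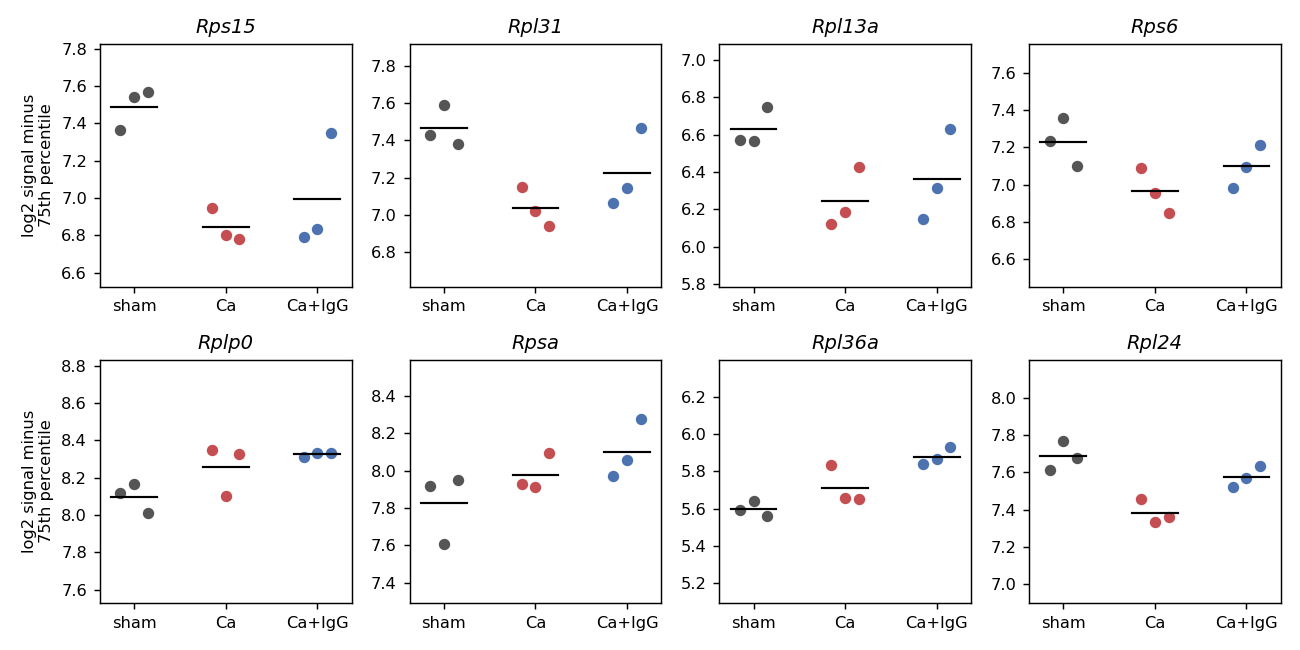
Log2 signal above the array's 75th percentile of 8 ribosomal protein genes, 1 point per array with a line at the group mean; every panel spans 1.3 log2 units. Rps15 and Rpl31 are lower on all 3 uMT_Ca arrays than on all 3 sham arrays, and replicate 3 of uMT_Ca+IgG lies at the sham level in both (7.35 and 7.46).

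Among paralogs with restricted expression, Rpl10l and Rpl39l varied widely between arrays, with SEs of 0.61 and 0.72. Rpl10l, a retrotransposed copy of Rpl10 best known from the testis, was dim but well above background on 9 of 9 arrays. It read -2.59, -2.89 and -2.58 in uMT_sham, -4.00, -3.82 and -4.57 in uMT_Ca, and -4.10, -4.55 and -1.86 in uMT_Ca+IgG. All uMT_Ca arrays lay below sham, while in the group with IgG replicate 3 lay above every sham array. The difference of -1.44 between uMT_Ca and uMT_sham (SE 0.61) missed the threshold in the fit of all arrays (adjusted p = 0.0946 by limma), and without IgG replicate 3 its adjusted p was 0.00223. Rpl10 itself, a protein of the tRNA site, read 8.87, 8.93 and 8.78 in uMT_sham and 8.70, 8.53 and 8.43 in uMT_Ca, a difference of -0.31 (SE 0.14) that was not called.

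Rpl39l, the copy of the tunnel protein Rpl39, was well above background on 0 of 3 sham arrays, 3 of 3 uMT_Ca arrays and 2 of 3 with IgG. It thus passed the filter through the uMT_Ca group alone. It read -6.32, -4.47 and -4.36 in uMT_sham and -3.96, -4.57 and -3.20 in uMT_Ca, so the groups overlapped. The fitted difference was not called (adjusted p = 0.239 by limma) and was -0.23 with normexp background correction, and no fold is given. Rpl39 gave -0.078 (SE 0.13). Rps27l, a copy of Rps27 that p53 is known to induce, read 5.20, 5.39 and 5.09 in uMT_sham and 5.37, 4.93 and 5.12 in uMT_Ca, so the groups overlapped, with a difference of -0.087 (SE 0.15). Rpl3l read between -7.24 and -6.15 over the 9 arrays, not well above background on any, and no change is given for it. With Rpl10l, Rpl39l and Rps27l left out, the other 77 members spanned -0.65 to 0.16.

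**Figure D4:**
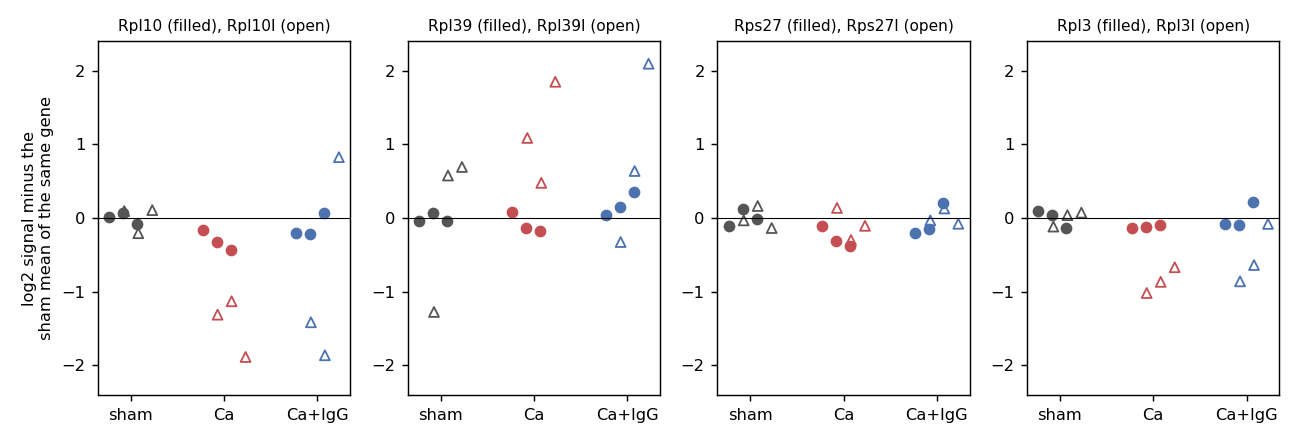
Log2 signal of 4 ribosomal protein genes (filled circles) and their paralogs (open triangles) on each array, less the sham mean of the same gene; Rpl3l lay within background on all arrays and Rpl39l on all sham arrays. Rpl10l lies more than 1 below its sham mean on all uMT_Ca arrays, and its replicate 3 with IgG lies above the sham mean, while Rpl10 stays within 0.5 of its sham mean on all arrays.

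Of the 81 genes 59 had several probes, and 58 had several that passed the filter. Probes of 1 gene differed in their change from uMT_sham to uMT_Ca by a median of 0.11. In 18 of the 58 genes the probes had opposite signs, and in 0 were probes called in opposite directions. For Rpl13a, often used as a reference gene, the brightest probe gave -0.39 (SE 0.16, adjusted p = 0.0918 in the fit over genes) and 2 dimmer probes gave 0.58 and 0.55. For Rpl31, 4 of the 5 probes gave -0.36 to -0.44 and the dimmest 0.35. Ribosomal protein genes have many processed pseudogenes of near-identical sequence, and how far a probe reads them was not tested. The brightest probes of Rps27 and Rps29 carry coordinates on another chromosome than their genes, chromosome 9 against 3 and chromosome 2 against 12.

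The second question was whether IgG altered these genes in aortas with CaCl2. Of the 80 members 0 were called, as were 0% of all genes, and an unadjusted p under 0.05 was reached by 0 members and 240 of all genes (limma). With 75th percentile scaling the members' changes were small and mostly above 0, in 77 of 80. Their median was 0.13, where the median of all genes was -0.016. With median scaling 4 of 80 were above 0 and the medians were -0.10 and -0.25. Relative to all genes the members' median was 0.15 under both, and it was 0.099 with normexp background correction, 0.035 with quantile normalization and 0.027 with the authors' series table. The members' own median was 0.011 with quantile normalization and -0.0039 in the series table. Without replicate 3 of uMT_Ca+IgG the members' median relative to all genes was 0.054. Among the arrays of slide row 1 alone, with 1 array of uMT_Ca+IgG, that relative median was 0.021.

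Arrays of uMT_Ca+IgG and uMT_Ca did not overlap for 11 members, all higher with IgG, which is 13.8% of the members against 5.02% of all genes (2.62% higher, 2.4% lower). With median scaling this count was 0, where 5.8% of all genes did not overlap (0.949% higher, 4.85% lower). Rps12, a small subunit protein, read 8.29, 8.21 and 8.33 in uMT_Ca and 8.41, 8.47 and 8.68 in uMT_Ca+IgG, a difference of 0.24 (SE 0.13) that was not called. Rpl39 differed by 0.26 (SE 0.13), Rpl7a by -0.14 (SE 0.15) and Rps2 by -0.017 (SE 0.12), and 0 of these were called. Rpl10l gave the largest value, 0.63 with an SE of 0.61, from arrays with IgG that ran from -4.55 to -1.86. The 95% interval lay inside a 2-fold change for 78 of 80 members and 76.7% of all genes, and the exceptions were Rpl10l and Rpl39l.

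Between uMT_Ca+IgG and uMT_sham 0 of 80 members were called, where 29% of all genes were, 14.7% higher and 14.2% lower, and an unadjusted p under 0.05 was reached by 2 members and 6884 genes (limma). This comparison shares its sham arrays with the first and its IgG arrays with the second. The members' median was 0.022 and that of all genes -0.095, and with median scaling they were 0.26 and 0.14. The arrays did not overlap for 7 members that were higher and 2 that were lower, 11.2% of them against 44.3% of all genes (20.4% higher, 24% lower). With median scaling 2 were higher and 1 was lower, 3.75% of the members against 28.4% of all genes (17.1% higher, 11.2% lower). With 75th percentile scaling the higher ones included Rpl36a at 0.28 (SE 0.11), Rplp0, Rpsa at 0.28 (SE 0.15), Rpl11 at 0.19 (SE 0.12) and Rps19 at 0.24 (SE 0.14), and the lower ones were Rps15 and Rps2. Without replicate 3 of uMT_Ca+IgG 2 members were called, Rps15 and Rpl10l, both lower, where 40.2% of all genes were called.

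Other genes of the translation machinery were read in the same fit, from lists made with earlier results of these data known. Their counts stand beside 36.5% of all genes called from uMT_sham to uMT_Ca, 17.4% higher and 19.1% lower. Fau, which encodes a ribosomal protein fused to a ubiquitin-like part, gave -0.19 (SE 0.14) from uMT_sham to uMT_Ca, and Rack1 of the small subunit gave 0.19 (SE 0.11), with 0 of these called. Of 15 elongation factors and other TOP mRNAs 2 rose and 2 fell, with a median of -0.14. Eef1a1, which brings tRNA to the ribosome, read 7.43, 7.50 and 7.41 in uMT_sham and 7.11, 7.07 and 7.12 in uMT_Ca and fell by 0.34 (SE 0.11, adjusted p = 0.0396 by limma), a sign that turned to 0.13 with median scaling. Eef2, which moves the ribosome along, read 5.05, 5.08 and 4.90 in uMT_sham, 6.09, 6.18 and 6.01 in uMT_Ca, and 6.11, 6.14 and 4.94 in uMT_Ca+IgG. It rose by 1.08 (SE 0.30, adjusted p = 0.0231 by limma), and again replicate 3 with IgG stood at the sham level. Of 29 initiation factors 3 fell and 0 rose, with a median of -0.069, and Eif5b, which joins the subunits, fell by 0.82 (SE 0.20). With median scaling 1 initiation factor was called higher and 0 lower.

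Of 67 ribosome assembly genes measured 4 rose and 3 fell in uMT_Ca, with a median of 0.021. Ncl, the nucleolar protein nucleolin, rose by 0.75 (SE 0.20, adjusted p = 0.0199 by limma) by its brightest probe, while its other probe gave -1.28. Utp4, of early small subunit processing, fell by 0.81 (SE 0.13), Rrp1b by 0.76 (SE 0.16) and Nol9 by 1.70 (SE 0.55). Fbl and Npm1, at 0.45 (SE 0.18) and -0.65 (SE 0.23), were not called, and the 5 probes of Npm1 ran from -0.65 to 0.91. Without replicate 2 of uMT_sham the Npm1 value was 0.077. Of 14 RNA polymerase I genes Rrn3, its initiation factor, fell by 0.71 (SE 0.11), 0 rose and the median was -0.28. Polr1a and Ubtf, at 0.23 (SE 0.17) and -0.57 (SE 0.34), were not called, and the other Ubtf probe gave 1.35. With median scaling the counts were 7 higher and 0 lower for assembly, and 1 higher and 0 lower for RNA polymerase I. Of 78 mitochondrial ribosomal proteins 1 rose and 8 fell, Mrpl1 by 0.72 (SE 0.13), and with median scaling 1 rose and 0 fell.

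Of 29 genes of mTORC1 and S6 kinase signalling 6 rose and 3 fell in uMT_Ca, with a median of -0.022. Lamtor2, which anchors mTORC1 at the lysosome, read 1.72, 1.01 and 0.74 in uMT_sham and 3.618, 3.435 and 3.605 in uMT_Ca and rose by 2.398 (SE 0.27, adjusted p = 0.000798 by limma). Akt1s1 and Ddit4, both inhibitors of mTORC1, rose by 1.95 (SE 0.63) and 1.76 (SE 0.48), and the GTPase Rragb fell by 1.48 (SE 0.23). Mtor, Rps6kb1, Eif4ebp1 and Larp1 were not called, at -0.28, 0.14, -0.28 and 0.21 with SEs of 0.11 to 0.17, and the 3 probes of Rps6kb1 ran from -0.10 to 0.29. Of 6 Myc family genes 2 rose and 1 fell. Myc, which drives ribosome production, read -1.93, -1.89 and -2.21 in uMT_sham, 0.11, -0.83 and 0.03 in uMT_Ca, and -0.46, -0.40 and -1.10 in uMT_Ca+IgG. It rose by 1.78 (SE 0.29, adjusted p = 0.00286 by limma), and no uMT_Ca array overlapped sham. Of 11 genes of the p53 response 3 rose and 0 fell, with Cdkn1a at 1.01 (SE 0.27; its 3 probes ran from 0.041 to 2.36), while Trp53 and Mdm2 were not called, at -0.47 (SE 0.20) and 0.12 (SE 0.11). In uMT_Ca+IgG versus uMT_Ca 0 genes of these lists were called.

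Markers of cell types changed in the same comparison. From uMT_sham to uMT_Ca 14 of 14 smooth muscle genes fell (median -2.06), 14 of 16 monocyte and macrophage genes rose and 1 fell (median 2.38), and 13 of 18 cell cycle genes rose and 0 fell (median 1.23). The summed smooth muscle signal, in log2 units above the 75th percentile, spanned 11.9 to 12.1 on the sham arrays, 10.2 to 10.9 in uMT_Ca and 10.36 to 10.69 in uMT_Ca+IgG, and Acta2 and Myh11, which define the labelled tissue's main cell type, were well above background on 9 of 9 arrays. The summed macrophage signal spanned 7.94 to 8.20, 8.76 to 8.98 and 8.85 to 9.18. Of 11 B and plasma cell markers 6 rose and 0 fell, and with median scaling 8 rose and 1 fell. Only 6 of these 11 markers were well above background on all 9 arrays. Their summed signal, over all 11, spanned 3.07 to 3.33 in uMT_sham, 4.43 to 5.22 in uMT_Ca and 5.34 to 5.90 in uMT_Ca+IgG. The part of these changes in the values of the ribosomal protein genes was not tested.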

How the data were processed

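Total RNA of 9 mouse aorta samples was hybridised to 1-colour Agilent arrays of 55681 probes, 1 array per sample. The authors deposited scanner output whose values are intensity per spot. Feature Extraction 10.7.1.1 subtracted background and removed spatial trends, per the file headers, while the submitters' processing notes name 9.5.1.1. The authors' deposited series table of intensity values, normalized by steps not given in the sources used here, served as an alternative.

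Processed signals were taken to log2 and the 75th percentile of each array was subtracted, with the array median as the alternative that the choice of genes names. Control and outlier spots were left out. Kept probes passed the scanner's test for being well above background on every array of 1 group or more, and the brightest stood for its gene. Members were named as in the files, other probes through RefSeq genes of GRCm38.p6, which also gave the start sequences. The gene called Rps3a here is Rps3a1 in that table. One linear model over 9 arrays (6 residual degrees of freedom) was fitted by lmFit and eBayes of limma 3.58.1 under R 4.3.3, with Benjamini-Hochberg adjustment over 16438 genes and a threshold of 0.05. The fit was tested on simulated data. Precision is limited by having 3 arrays in each group.

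The members and lists were chosen with earlier results of these data known. Members named with values were those with the largest called changes, filled to 3 per direction by smallest p, and a fixed set. Some results are not reported here. Of other genes, a fixed set and some called genes of each list were named. Alternatives covered scaling, background, filter, probes, names, slide, slide row, replicate number, variance and each array left out. Protein identity between paralogs was not computed.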

Additional observations from a re-analysis of the deposited data

How the results depend on the processing

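The members' median change from uMT_sham to uMT_Ca was -0.12, and it was 0.35 with median scaling (also with a variance trend), 0.024 with quantile normalization, -0.014 with normexp background correction, 0.073 with the series table and 0.068 centred on the members' own median. Members called numbered 2, and 0 with median scaling, centred on the members, with slide or slide row as a block and within slide 1; 1 with quantile normalization, normexp, a replicate block and within slide row 1; and 27 by arrays that did not overlap. Leaving out 1 array gave 0 to 4 called and medians of -0.16 to -0.09. The series table called Rplp0 higher. With median scaling Rpl31 gave 0.042 and Eef1a1 0.13, with a variance trend too, and Ncl as the mean of its probes -0.27. All genes called numbered 5999, and 3379 with a slide row block, 3896 with a slide block, 3920 within slide 1, 9307 by arrays that did not overlap, and 3920 to 7389 with 1 array left out.

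For uMT_Ca+IgG versus uMT_Ca the members' median of 0.13 became -0.10 with median scaling, with or without a variance trend. The count of 0 members became 11, and of 0 genes 825, by arrays that did not overlap. With 1 array left out 0 members and 0 to 2 genes were called, and the medians were 0.06 to 0.19. For uMT_Ca+IgG versus uMT_sham the median of 0.022 became 0.26 with median scaling and -0.05 to 0.06 with 1 array left out. The count of 0 members became 2 with quantile normalization and with the series table, 1 with probe means and with a variance trend, 9 by arrays that did not overlap, and 0 to 2 with 1 array left out. All genes called numbered 4763, and 2986 with median scaling, 3017 with a variance trend too, 2311 and 1341 within slide rows 1 and 2, 7288 by arrays that did not overlap, and 2988 to 6669 with 1 array left out. Over 4499 values of named genes under alternatives, the sign differed from the reported one in 356, of which 351 were called under neither setting and 126 came from median scaling. The causes were not tested. Correlations of same-numbered arrays ran from -0.20 to 0.22. With 3 arrays in each group, these values cannot decide whether replicate numbers pair the samples. The replicate block called 5758 and 4647 genes in the comparisons with sham. The within-slide, within-row, member-centred and combined settings were chosen after seeing the data.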
